A study of Homo sapiens with 6 samples.

Results

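Genes that carry a cell through mitosis were compared in HL-60 cells whose OSGEP was knocked down by a hairpin RNA and in HL-60 cells with a control hairpin. The set holds 43 genes of the 58302 in the count tables, chosen by function and by symbol: mitotic kinases and cyclins, spindle checkpoint, chromosomal passenger, centromere and kinetochore, spindle, chromosome separation and cytokinesis genes. HL-60 is an established human acute myeloid leukaemia line that grows in suspension. The genotype of 3 libraries is given as OSGEP knockdown, and the other 3 are WT cells with a control shRNA, with no other agent, dose or time point in the labels. OSGEP encodes the catalytic subunit of the KEOPS complex, which places the t6A modification on transfer RNAs that read codons starting with A. The labels leave unsaid how many hairpins were used and whether the 3 libraries of each kind are separate cultures. The p-values therefore rest on the spread among 6 libraries, and that spread may be technical.

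Mitosis begins when cyclin B and CDK1 drive chromosome condensation and spindle assembly. Kinetochores then attach chromosomes to spindle microtubules while the spindle checkpoint holds the anaphase-promoting complex in check, and the release of that complex through CDC20 lets separase part the sister chromatids before the cleavage furrow splits the cell. Transcripts of these genes build up in the second part of the cycle, under MuvB complexes with B-MYB and FOXM1, and are held down in resting cells by the DREAM form of MuvB, which acts with E2F4 and p130 or p107. HL-60 cells divide continuously in culture.

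Promoter stretches are shown for 6 members because the elements that tie mitotic genes together lie there. The cell cycle homology region, TTTGAA or TTCGAA, is the element through which MuvB complexes contact DNA, and CCAAT is the element of the factor NF-Y. The sequences are from RefSeq promoters on GRCh38.p14, run 5′ to 3′ on the gene's strand, and overlap no exon of GENCODE release 29. Distances are from the RefSeq start, which can differ from the start of the GENCODE gene given with the values, and the AURKB stretch lies inside the GENCODE gene. Capitals mark these elements or their reverse complements, TTCAAA for TTTGAA and ATTGG for CCAAT. CDK1, KIF11 and AURKB were called lower in the knockdown, CDC20 had every knockdown library above every control library, and MKI67 and ESPL1 had every knockdown library below every control library without a call.
CDK1, chr10:60778141-60778220, plus strand, 190 to 111 bases before the start: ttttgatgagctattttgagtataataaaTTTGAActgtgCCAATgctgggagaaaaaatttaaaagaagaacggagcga
KIF11, chr10:92593050-92593129, plus strand, 80 to 1 bases before the start: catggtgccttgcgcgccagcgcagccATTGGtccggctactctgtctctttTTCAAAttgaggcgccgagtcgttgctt
AURKB, chr17:8210336-8210415, minus strand, 190 to 111 bases before the start: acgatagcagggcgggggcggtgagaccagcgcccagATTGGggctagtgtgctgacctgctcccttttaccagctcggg
MKI67, chr10:128126434-128126533, minus strand, 110 to 11 bases before the start: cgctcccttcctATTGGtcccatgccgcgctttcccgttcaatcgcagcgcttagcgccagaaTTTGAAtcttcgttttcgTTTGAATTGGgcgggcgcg
ESPL1, chr12:53268219-53268298, plus strand, 80 to 1 bases before the start: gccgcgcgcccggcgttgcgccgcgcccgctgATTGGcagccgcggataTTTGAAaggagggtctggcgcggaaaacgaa
CDC20, chr1:43358871-43358950, plus strand, 110 to 31 bases before the start: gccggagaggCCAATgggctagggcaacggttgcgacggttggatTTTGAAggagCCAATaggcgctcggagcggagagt

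In the MKI67 stretch the last base of the TTTGAA nearer to the start is also the first base of an ATTGG. The promoter table, which covers 250 bases before to 50 after each start, held 36 of the 43 members. AURKA, FOXM1, BUB3, TTK, BIRC5, TPX2 and UBE2C were not matched. TTTGAA or TTCGAA, read on both strands, was present in 25 of the 36 promoters (69.4%), against 1049 of 9173 protein-coding genes tested (11.4%) and 5742 of all 35116 promoters in the table (16.4%). CCAAT on either strand was present in 28 of the 36 (77.8%), against 3420 of the 9173 (37.3%) and 34.6% of all promoters. At least 2 CCAAT matches were found in 18 of the 36, against 14.2% of the protein-coding genes tested. The 25 promoters held 33 matches to the cell cycle homology region, of which 28 read TTTGAA or TTCGAA on the gene's own strand and 26, in 22 promoters, began between 60 bases before and 50 after the start. A match describes letters only.

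**Figure D1:**
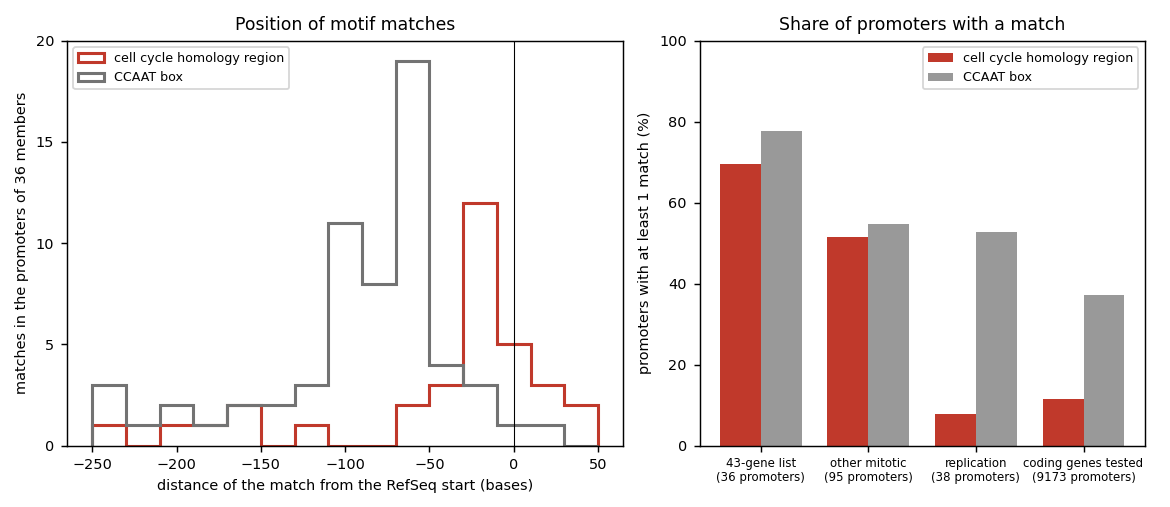
Left, histogram of the distance from the annotated start, in bases, of the matches to TTTGAA or TTCGAA and to CCAAT in the 36 member promoters. Right, percent of promoters with at least 1 match in 4 sets, where the cell cycle homology region stands at 69.4%, 51.6%, 7.89% and 11.4%.

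The same elements were counted in other mitotic genes and in DNA replication genes, which are transcribed earlier in the cycle. In a list of 110 other mitotic genes the cell cycle homology region was found in 49 of 95 promoters (51.6%) and CCAAT in 52 (54.7%). In a list of 44 DNA replication genes it was found in 3 of 38 promoters (7.89%), while CCAAT was found in 20 (52.6%).

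All 43 members passed the filter on low counts, with a lowest count of 18 in any library, and control means ran from 9.50 to 967 CPM (counts scaled to library size with TMM factors). The 6 libraries held between 8326982 and 10157091 counted reads. OSGEP itself was at 21.2, 23.1 and 20.9 CPM in the knockdown libraries and at 49.0, 54.4 and 76.9 in the controls (log2 fold change -1.47, SE 0.21, edgeR quasi-likelihood adjusted p = 0.000228). A list of 8 markers of the line, which holds MYC beside myeloid genes, moved with the condition. Its summed level was 1189 to 1432 CPM in the knockdown against 3136 to 3380 in the control. Of the 7 tested, 5 were called lower (71.4%, against 5.56% of all genes tested), MPO and MYC among them. The log2 fold changes of the 7 ran from -2.57 to -0.03. Summed lymphoid markers (3.78 to 6.89 CPM), erythroid markers (0.939 to 7.93 CPM, with 1 of 6 at 0 in every library) and stromal and epithelial markers (76.9 to 103 CPM) had overlapping groups. The part of these shifts in the mitotic values was not tested. In bulk RNA, fewer cells in mitosis and less RNA of a gene per cell cannot be told apart.

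Of the 43 genes, 4 were called lower in the knockdown at an edgeR adjusted p under 0.05 (CDK1, KIF11, AURKB and MAD2L1) and 0 were called higher. That is 9.30% called lower, where 5.56% of the 14018 genes tested were called lower and 5.19% higher. At an unadjusted p under 0.05 the counts were 11 lower and 2 higher. Over all genes tested, 3213 of 14018 reached that p, 1673 of them lower. DESeq2 called 5 members lower and 0 higher. The median log2 fold change of the members was -0.21, against 0.01 over all genes tested, and the values ran from -0.79 to 0.73. Of the 43 values, 31 lay below 0 (72.1%, against 49.7% of all genes), or 27 when libraries were scaled by size alone. With that scaling the median over all genes tested was 0.08. In 16 members every knockdown library lay below every control library (37.2%, against 15.6% of all genes), in 2 every knockdown library lay above (13.3% of all genes), and in 25 the groups overlapped. The 9027 tested genes with a mean CPM inside the members' range came closer to the members in these shares. Of them 7.69% were called lower, 18.7% had groups apart in that direction and 1426 were lower at an unadjusted p under 0.05. They were not matched to the members gene by gene, and their median SE was 0.22, against 0.16 for the members. The count of 4 fell to 2 without knockdown 3 or control 1 and to 1 without control 2 or control 3, and was 6 without knockdown 1.

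**Figure D2:**
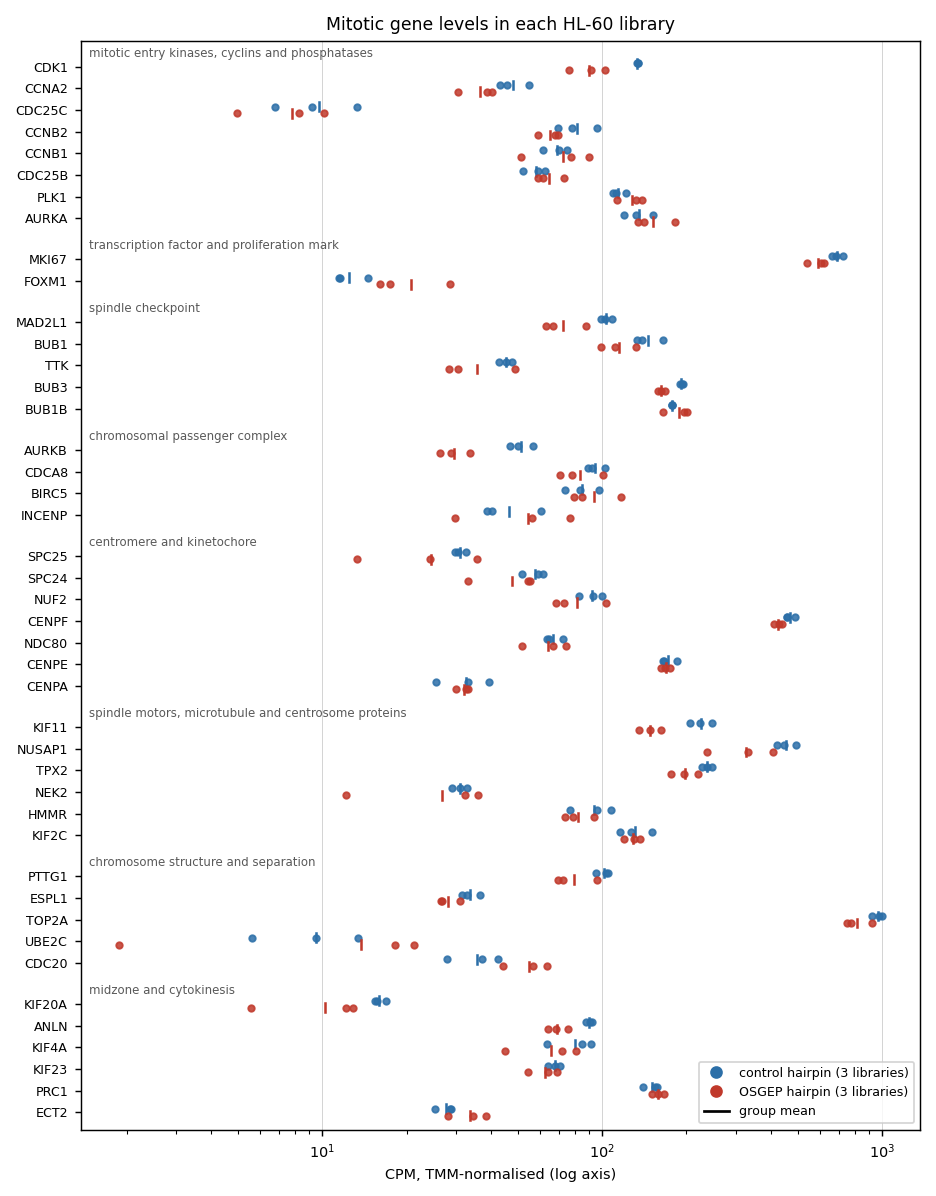
Level of each of the 43 mitotic genes in each library, in TMM-normalised CPM on a log axis, grouped by role, with group means as vertical ticks (3 knockdown and 3 control libraries). CDK1, KIF11, AURKB and MAD2L1 show separated groups, whereas PLK1, AURKA, CENPA and KIF2C overlap.

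The members differ widely in abundance. Per exonic length, NUSAP1 at 263 ± 23.4 TPM (a library's share of length-scaled counts; SD, n = 3) and TOP2A at 250 ± 9.25 were the most abundant in control cells, followed by TPX2, MKI67, PTTG1 and KIF11. The lowest were FOXM1 at 4.25 TPM, CDC25C at 4.87, ESPL1 at 6.31 and KIF20A at 6.71. The order of the 43 by TPM was much alike in the knockdown (Spearman 0.95 across genes, which are not replicates). Within it, AURKA moved from place 7 to 4 and CDC20 from 28 to 15, while KIF11 moved from 6 to 11, CDK1 from 12 to 19 and AURKB from 21 to 30. NUSAP1 and TOP2A exchanged the top places, with a NUSAP1 level of 205 ± 64.5 TPM and a TOP2A level of 226 ± 16.4 in the knockdown, which do not differ beyond their spread.

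Mitotic entry depends on CDK1, its cyclins, the CDC25 phosphatases that switch it on, and the kinases PLK1 and AURKA. Only CDK1 was called among these 8 genes, and their log2 fold changes were split evenly, 4 below and 4 above 0 (median -0.12). CDK1 (ENSG00000170312, chr10:60778331-60794852 on GRCh38) was at 76.2, 91.0 and 102 CPM in the knockdown libraries and at 134, 133 and 134 in the controls. Every knockdown library lay below the controls, which were nearly identical. The mean was 134 ± 0.823 CPM in controls and 89.8 ± 13.1 in knockdown (SD, n = 3), a log2 fold change of -0.57 (SE 0.14, edgeR adjusted p = 0.0144). The call was lost without control 1, 2 or 3 (log2 fold changes -0.58, -0.58 and -0.57, edgeR adjusted p = 0.0559, 0.0633 and 0.0686) at nearly the same size.

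The cyclin partners of CDK1 were not called. CCNA2, the cyclin of S phase and early mitosis, was at 38.9, 40.3 and 30.5 CPM in the knockdown and 45.9, 54.6 and 43.1 in the control (log2 change -0.39, edgeR adjusted p = 0.259). CCNB2 was at 67.7, 69.4 and 58.8 CPM against 78.0, 69.8 and 96.1 (-0.31, edgeR adjusted p = 0.276). Both had knockdown libraries below all controls, though for CCNB2 the gap was only between 69.4 and 69.8. CCNB1, the cyclin that with CDK1 triggers entry, was at 51.4, 89.4 and 77.1 CPM against 75.0, 61.3 and 70.0, with overlapping groups and a log2 fold change of 0.08 (95% interval -0.33 to 0.49). Its sign turned without knockdown 2 (-0.09) or control 2.

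PLK1, AURKA, CDC25B and CDC25C had overlapping groups and were not called. PLK1, which activates CDK1 and later acts on kinetochores, was at 113, 132 and 139 CPM in the knockdown and 112, 121 and 109 in the control (log2 fold change 0.17, 95% interval -0.12 to 0.45). AURKA, the kinase of spindle poles, was at 134, 181 and 141 CPM against 152, 132 and 120 (0.18, interval -0.13 to 0.49). For both genes the intervals exclude a decrease of the size seen for CDK1. CDC25B had a log2 fold change of 0.15 and CDC25C, with control libraries at 6.80, 13.3 and 9.23 CPM, one of -0.32 with a wide interval (-1.23 to 0.59).

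FOXM1, a transcription factor that activates mitotic genes, had the largest positive value of the set. Its levels were 17.5, 28.7 and 16.1 CPM in the knockdown and 11.4, 14.5 and 11.6 in the control, so every knockdown library lay above every control library. The log2 fold change was 0.73 (SE 0.31) and missed the threshold (edgeR adjusted p = 0.160, unadjusted p = 0.0307). The gene overlaps RHNO1 and ITFG2 on the opposite strand. RHNO1 had 3045 counts over the 6 libraries against 961 for FOXM1, and the strand setting of the counting is not given in the sources used here. The same limit holds for CCNA2 (with EXOSC9), CDC25C (FAM53C) and KIF20A (BRD8), each of which overlaps an opposite-strand gene that had more counts than its own. MKI67, the coat protein of mitotic chromosomes that serves as a proliferation mark, was at 618, 606 and 540 CPM against 660, 687 and 727. All 3 knockdown values were below the controls, with a log2 fold change of -0.23 (SE 0.10, edgeR adjusted p = 0.147).

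The spindle checkpoint delays anaphase until every kinetochore is attached. MAD2L1, whose protein binds and restrains CDC20, was the only 1 of its 5 members called (ENSG00000164109, chr4:120055608-120067074). It was at 87.6, 66.9 and 62.7 CPM in the knockdown and at 98.7, 108 and 103 in the control, with all knockdown libraries below the controls. Control and knockdown means were 103 ± 4.67 and 72.4 ± 13.3 CPM, and the log2 fold change was -0.51 (SE 0.16), just inside the threshold (edgeR adjusted p = 0.0485). The call held in 6 of 14 alternatives. It was lost without knockdown 2 (-0.44), knockdown 3 (-0.40), control 1 (-0.54), control 2 (-0.48) or control 3 (-0.52), and with another scaling. Counts on the processed pseudogene MAD2L1P1 came to 6.36% of those on MAD2L1.

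The other checkpoint genes were not called. BUB1, the kinase that marks centromeres, was at 133, 111 and 99.4 CPM against 139, 133 and 165 (log2 change -0.35, edgeR adjusted p = 0.153), and was called without knockdown 1 (-0.47, edgeR adjusted p = 0.0456). BUB3, the adaptor that brings BUB1 and BUB1B to kinetochores, was at 162, 158 and 168 CPM against 193, 194 and 190 (-0.24, edgeR adjusted p = 0.222). Both sets of libraries lay apart, though for BUB1 the gap was only between 132.5 and 133.2 CPM. Those of BUB3 were tight. BUB1B, which encodes the checkpoint protein BUBR1, was at 165, 197 and 201 CPM against 177, 178 and 178 (0.08, 95% interval -0.18 to 0.33). TTK, the kinase MPS1 that starts checkpoint signalling, had 2 knockdown libraries low, at 30.6 and 28.4 CPM, and 1 at 48.6, above all controls (42.7 to 47.6).

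The chromosomal passenger complex joins the kinase AURKB to INCENP, BIRC5 (survivin) and CDCA8 (borealin), and corrects faulty attachments before it moves to the midzone. Its kinase fell, and the other members were not called. AURKB (ENSG00000178999, chr17:8204733-8210600) was at 33.6, 26.4 and 28.8 CPM in the knockdown and 46.8, 50.01 and 56.6 in the control. All knockdown libraries were below the controls. The mean of 29.6 ± 3.64 CPM was 57.9% of the control mean of 51.1 ± 5.01, and the log2 fold change of -0.79 (SE 0.19, edgeR adjusted p = 0.0146) was the lowest of the 43. Without knockdown 3, control 2 or control 3 the log2 fold change was -0.75, -0.81 and -0.71 and the call was lost (edgeR adjusted p = 0.0636, 0.0567 and 0.0946).

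The partners of AURKB spread in both directions. INCENP, the scaffold, was at 29.8, 77.0 and 56.1 CPM in the knockdown and 60.5, 38.8 and 40.2 in the control, with overlapping groups and a log2 fold change of 0.22 that became -0.11 without knockdown 2. BIRC5 was at 79.1, 117 and 84.4 CPM against 83.1, 73.4 and 97.1 (0.15, or -0.04 without knockdown 2). CDCA8 was at 77.8, 101 and 70.6 CPM against 92.3, 102 and 89.0 (-0.18). In all 3 of these genes knockdown 2 had the highest value of its group.

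**Figure D3:**
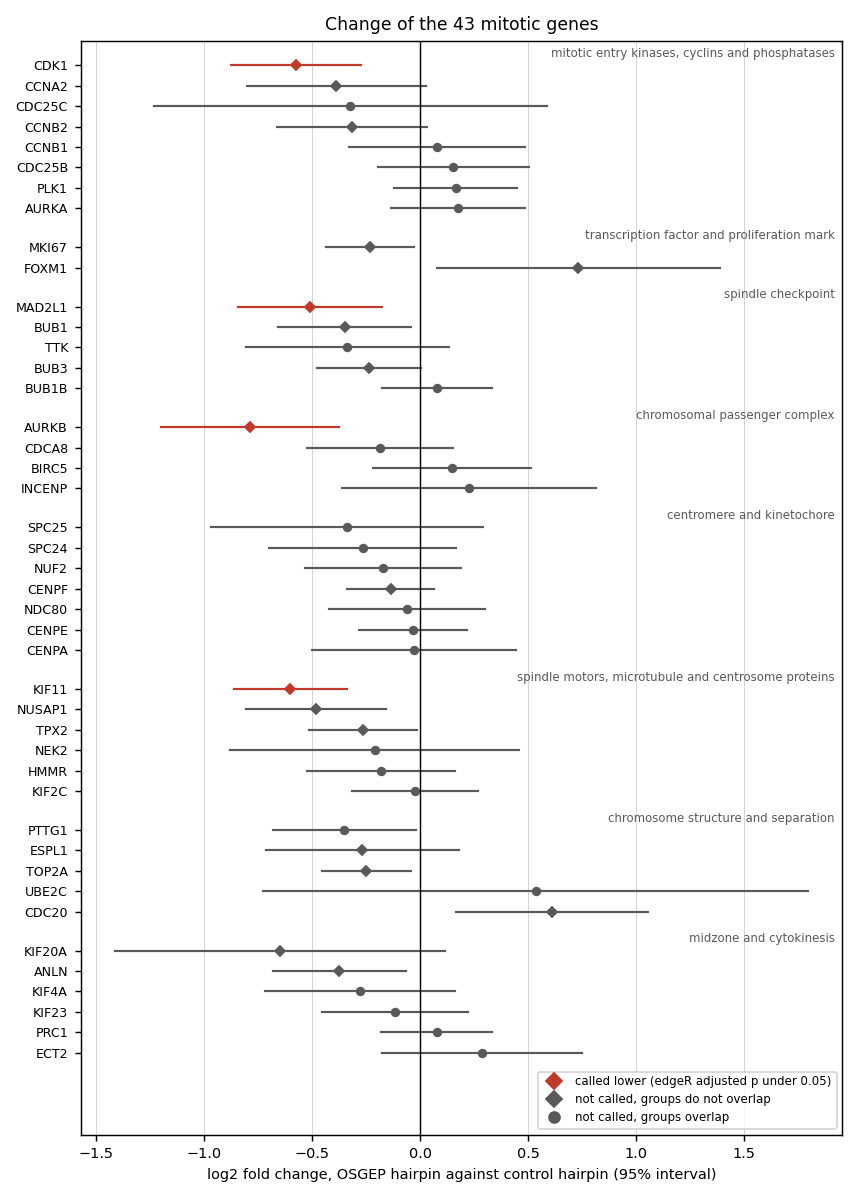
Log2 fold change of each of the 43 mitotic genes, OSGEP hairpin against control hairpin, with its 95% interval, grouped by role and ordered within roles. The 4 called genes are red and lie between -0.79 and -0.51, and most other intervals span 0.

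None of the 7 centromere and kinetochore members was called, and none reached an unadjusted p under 0.05. All 7 values were below 0 (-0.34 to -0.03, median -0.14), but CENPA, CENPE and NDC80 turned to 0.04, 0.03 and 0.01 when libraries were scaled by size alone. CENPF, a large outer kinetochore protein, was at 438, 411 and 428 CPM in the knockdown and 488, 459 and 458 in the control, apart but close (log2 fold change -0.14, SE 0.10). CENPE, the kinetochore motor, was at 175, 162 and 168 CPM against 185, 165 and 167 (95% interval -0.28 to 0.22). CENPA, the histone variant that defines centromeres, was at 33.2, 32.7 and 30.1 CPM against 39.5, 25.5 and 33.1. It overlaps SLC35F6 on the same strand, so reads of the 2 genes may be mixed. The NDC80 complex holds microtubules through 4 subunits. NDC80, NUF2, SPC24 and SPC25 had log2 fold changes of -0.06, -0.17, -0.27 and -0.34, all with overlapping groups. SPC25 varied most among them, at 24.3, 35.8 and 13.3 CPM in the knockdown against 29.9, 32.5 and 30.5 in the control.

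Among the spindle proteins KIF11 fell. KIF11 encodes Eg5, the motor that pushes the spindle poles apart (ENSG00000138160, chr10:92593286-92655395). It was at 149, 162 and 136 CPM in the knockdown and 207, 223 and 247 in the control with a clear gap between the groups. Control and knockdown means were 225 ± 20.5 and 149 ± 13.0 CPM, and the log2 fold change was -0.60 (SE 0.12, edgeR adjusted p = 0.00396). KIF11 alone among the 4 called genes kept its call in all 14 alternatives, with a highest edgeR adjusted p of 0.0436.

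The other 5 spindle genes also had values below 0, though KIF2C turned to 0.05 with scaling by library size. NUSAP1, which bundles spindle microtubules around chromosomes, was at 237, 408 and 331 CPM against 492, 448 and 422, with the groups apart and knockdown 1 far below the rest. Its log2 fold change of -0.48 (SE 0.15) missed the threshold narrowly (edgeR adjusted p = 0.0554) and passed it in 6 alternatives, among them without knockdown 2 (-0.67). TPX2, the activator of AURKA on the spindle, was at 197, 220 and 176 CPM against 247, 237 and 228 (-0.26, edgeR adjusted p = 0.191). KIF2C, a motor that takes microtubules apart at centromeres, was at 129, 137 and 120 CPM against 127, 150 and 115 (-0.02, 95% interval -0.31 to 0.27). NEK2, the kinase that separates centrosomes, had 1 low knockdown library at 12.2 CPM beside 32.3 and 35.9, while its controls were 31.0, 32.9 and 29.04. Its log2 fold change of -0.21 became 0.13 without that library. HMMR had a log2 fold change of -0.18.

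The genes of chromosome separation held values in both directions. CDC20, the activator of the anaphase-promoting complex, was at 44.2, 56.5 and 63.3 CPM in the knockdown and 42.4, 27.8 and 37.2 in the control. Every knockdown library was above every control library, the opposite of MAD2L1. The log2 fold change was 0.61 (SE 0.21) and was not called (edgeR adjusted p = 0.0769). It passed without knockdown 1 (0.74, edgeR adjusted p = 0.0323) and with no filter on low counts. A processed pseudogene, CDC20P1, held 1434 counts against 2554 for CDC20, with a log2 fold change of 0.41 (edgeR adjusted p = 0.398). How reads shared by such copies were counted is not given in the sources used here, so the CDC20 level is uncertain.

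UBE2C, the ubiquitin-conjugating enzyme of the same complex, was at 1.88, 21.3 and 18.1 CPM in the knockdown and 13.4, 5.63 and 9.48 in the control. This was the widest spread of any member, and the interval of its log2 fold change ran from -0.73 to 1.79. The pseudogene UBE2CP4 held 133 counts against 663 for UBE2C. TOP2A, which untangles sister chromatids, was at 916, 748 and 777 CPM against 978, 921 and 1001 (-0.25, edgeR adjusted p = 0.126, called without knockdown 1 at -0.34). ESPL1, which encodes separase, was at 26.5, 26.7 and 31.0 CPM against 33.0, 36.6 and 31.6 (-0.27, edgeR adjusted p = 0.519). PTTG1, which encodes securin, the inhibitor of separase, had a log2 fold change of -0.35 (edgeR adjusted p = 0.186). Its close copies PTTG2 and PTTG3P held 708 and 517 counts against 5106.

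Of the 6 midzone and cytokinesis genes 0 were called, with 1 at an unadjusted edgeR p under 0.05 and 0 called by DESeq2. That 1 was ANLN, which encodes anillin, the scaffold of the cleavage furrow, at 63.9, 75.3 and 68.5 CPM in the knockdown and 87.3, 90.2 and 91.8 in the control. The groups were well apart, and the log2 fold change was -0.37 (SE 0.14, edgeR adjusted p = 0.122). KIF20A, a midzone motor, was at 12.2, 5.55 and 12.9 CPM against 15.5, 16.9 and 15.6 (-0.65, SE 0.36, edgeR adjusted p = 0.314). ECT2, which activates RhoA at the furrow, was at 34.5, 38.4 and 28.2 CPM against 28.9, 25.4 and 28.7 (0.29, edgeR adjusted p = 0.498). PRC1, the bundler of midzone microtubules, and its partner motors KIF4A and KIF23 had log2 fold changes of 0.08, -0.28 and -0.11.

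Ratios of TPM between 2 members in the same library are given for 6 pairs as a description. The pairs were picked after their values were seen, so that some were bound to separate, and they carry no test. AURKB stood at 0.327, 0.191 and 0.266 of the AURKA level in the knockdown libraries and at 0.402, 0.493 and 0.616 in the controls. CDK1 stood at 0.964, 0.662 and 0.863 of CCNB1 in the knockdown and 1.16, 1.41 and 1.25 in the control. Both ratios were lower in all 3 knockdown libraries, and CDK1 was the less abundant of its pair only there. MAD2L1 stood at 0.702, 0.420 and 0.351 of CDC20 against 0.826, 1.38 and 0.978, and KIF11 at 0.862, 0.885 and 0.846 of KIF2C against 1.22, 1.11 and 1.61. These were apart too. The ratios of BUB1 to BUB1B and of CCNB2 to CCNB1 overlapped between groups.

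**Figure D4:**
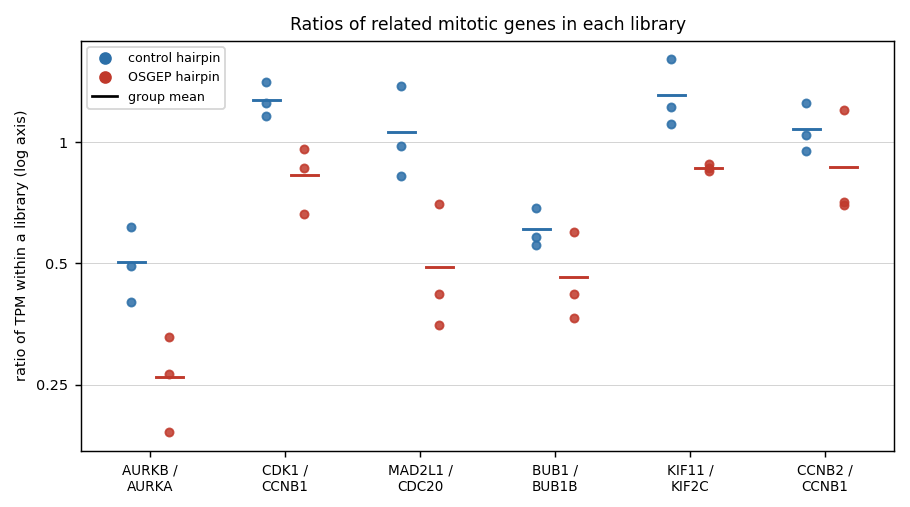
Ratio of the TPM levels of 2 mitotic genes within each library, for 6 pairs, on a log axis, with 3 knockdown and 3 control libraries per pair. AURKB to AURKA, CDK1 to CCNB1, MAD2L1 to CDC20 and KIF11 to KIF2C are lower in every knockdown library, and the other 2 pairs overlap.

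The members varied more among knockdown than among control libraries. The median within-group SD of log2(CPM + 1) was 0.21 over the members in the knockdown and 0.11 in the control, and was larger in the knockdown for 34 of 43 (79.1%). Over the 9027 genes with a mean CPM inside the members' range the medians were 0.24 and 0.19, and the SD was larger in the knockdown for 61.9%. Knockdown 2 lay above its group's mean for 31 of the 43 members, knockdown 1 for 20 and knockdown 3 for 17. The highest knockdown library exceeded the lowest by 11.3 times for UBE2C, 2.94 times for NEK2, 2.69 times for SPC25 and 2.58 times for INCENP. Among the controls these ratios were 2.38, 1.13, 1.09 and 1.56. The share of mitochondrial reads was 17.1% in knockdown 2 and 18.7% to 20.4% in the other libraries.

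Summed over the 43 genes, the level was 5124, 5439 and 5042 CPM in the knockdown and 6014, 5878 and 5994 in the control. The knockdown mean of 5202 ± 209 CPM was 87.2% of the control mean of 5962 ± 73.3, and the groups did not overlap. TOP2A, MKI67, CENPF and NUSAP1 made up 43.3% of the control sum and stood at 83.4% of it in the knockdown, and the other 39 at 90.1%. In TPM, which weights genes by length and is not TMM-scaled, the sums were 1791, 2282 and 1886 in the knockdown and 2156, 2081 and 2065 in the control, 94.5% with overlapping groups. The separation of the sums therefore depends on the scale.

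Other mitotic genes, from a list made by function, were compared by the same counts. Of 110 listed, 109 were tested, and 11 were called lower (10.1%, against 5.56% of all genes tested) and 0 higher. The median log2 fold change was -0.16, with 77 below 0. At an unadjusted p under 0.05, 24 were lower and 1 higher, against 1673 lower of all 14018 genes tested. DESeq2 called 1 of the list higher. In 33 of the 109 every knockdown library lay below every control library (30.3%, against 15.6% of all genes), and in 2 every one lay above. Of the 11 calls, 4 were among 26 centromere and kinetochore genes (15.4%). Groups overlapped in 17 of these 26, against 9966 of the 14018 genes tested. CENPU, a subunit of the inner kinetochore, was at 54.6, 66.5 and 51.9 CPM in the knockdown and 109, 141 and 119 in the control (log2 fold change -1.09, SE 0.16, edgeR adjusted p = 0.000204). CENPC, which joins CENPA nucleosomes to the outer kinetochore, fell by 1.02 on the log2 scale and CENPK by 0.99. The groups of these 3 genes were apart. KNTC1, a checkpoint protein of kinetochores, fell by 0.75 and FBXO5, the inhibitor EMI1 of the anaphase-promoting complex, by 0.70. CENPU and CENPC kept their calls in all 14 alternatives. KNTC1 was not called without control 2 (-0.71), FBXO5 without control 3 (-0.62), and CENPK without knockdown 1 (-0.80), knockdown 3 (-0.94), control 1 (-1.04), control 2 (-0.86), control 3 (-1.06) or with library size alone (-0.91). The count of 11 was 6 without control 2 or control 3.

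**Figure D5:**
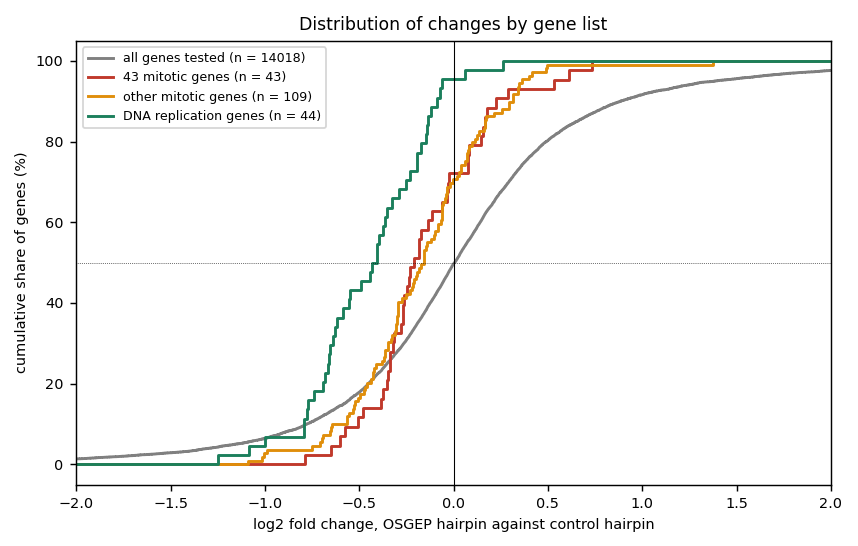
Cumulative share (%) of genes up to each log2 fold change, OSGEP hairpin against control hairpin, for the 43 mitotic genes, the other mitotic genes, the DNA replication genes and all genes tested. The curves cross the dotted middle line at medians of -0.21, -0.16, -0.42 and 0.01, with both mitotic lists between the replication genes and all genes.

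The DNA replication genes gave the comparison earlier in the cycle. Of 44, 18 were called lower (40.9%, against 5.56% of all genes tested) and 0 higher. Values below 0 numbered 42, and the median log2 fold change was -0.42. At an unadjusted edgeR p under 0.05, 25 were lower and 0 higher, against 1673 lower of all 14018 genes tested. DESeq2 called 0 of the list higher. Their summed level was 71.7% of control in CPM, against 87.2% for the mitotic members. The largest decreases were those of CDC7, the kinase that fires origins (-1.25), and GINS2 and GINS1, subunits of the replicative helicase (-1.09 and -0.999). All 3 kept their calls in every alternative. The count of 18 was 9 without control 3. Whether replication and mitotic genes differ was not tested.

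A list of 17 MuvB, DREAM and other cell cycle regulators held 3 calls, 2 lower and 1 higher. That is 17.6% called, against 10.8% of all genes tested and 14.5% of genes with a mean CPM inside the range of the mitotic members. CDKN1A, the inhibitor p21 of cyclin-dependent kinases, was at 37.5, 59.8 and 53.3 CPM in the knockdown and 15.6, 14.8 and 13.3 in the control (log2 fold change 1.78, SE 0.24, edgeR adjusted p = 8.81e-05). RBL1, which encodes p107, fell by 0.79 on the log2 scale (edgeR adjusted p = 0.00606), and was not called without control 3 (-0.72). TFDP1, the dimer partner of E2F factors, fell by 0.36 (edgeR adjusted p = 0.0300). Its call was lost without knockdown 2 (-0.28), knockdown 3 (-0.37), control 1 (-0.39), control 2 (-0.35) or control 3 (-0.37), with no filter (-0.36) and with the replicate block (-0.37). MYBL2, which encodes B-MYB, had a log2 fold change of -0.22 and was not called (edgeR adjusted p = 0.422).

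Because t6A serves codons that start with A, the coding sequences of the members were described by that share. The median member had 30.2% of such codons, against 27.3% over 11115 protein-coding genes tested, 29.9% in the other mitotic genes and 28.7% in the replication genes. It ran from 20.2% in ESPL1 to 37.8% in CENPE, with 35.9% in TOP2A and in MKI67. Among the called genes it was 34.1% in KIF11, 31.6% in CDK1, 30.2% in MAD2L1 and 25.9% in AURKB. Across members the share and the log2 fold change had a Spearman correlation of -0.21 (43 genes, which share libraries, depth and base composition) and across all the coding genes one of -0.05. For the GC content of the coding sequence these correlations were 0.29 and 0.07.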

How the data were processed

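RNA of 6 HL-60 libraries (3 per group) was sequenced with a stranded mRNA kit and paired reads of 150 bp, per the labels' protocols. The deposited values are whole-number counts per Ensembl gene made by the authors. The submitters' processing notes name HISAT2 2.1.0, featureCounts 1.6.3 and the builds GRCh38 and GRCm38, without roles. Not given in the sources used here are the annotation, the strand setting and the handling of multiply aligned reads. Groups came from sample titles. Positions came from GENCODE release 29, which held 58039 of 58302 identifiers. Symbols came from a list of current gene names, which held 57532, and otherwise from GENCODE release 29.

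Counts went into edgeR 4.0.16 (R 4.3.3), with TMM scaling, filterByExpr (minimum count 10), group as sole term and two-sided quasi-likelihood tests. Benjamini-Hochberg adjustment covered the 14018 genes kept, and calls needed an adjusted p under 0.05. TPM used the union of exons per gene. The steps were tested on simulated counts, 3 libraries against 3. Of the genes changed 1.5-fold, 3 of 62 were called in the right direction. At 2-fold this held for 25 of 64 and at 4-fold for 42 of 62, with 4 false calls among 74. Small changes were thus mostly missed there, so a gene without a call may still have changed. Alternatives were no filter, a filter at mean CPM 5, scaling by library size alone or by RLE, a replicate block, each library left out, DESeq2 1.42.0 and limma-voom (limma 3.58.1), and, chosen after seeing the data, protein-coding genes alone. The members and lists were chosen with earlier results of these data known. Every member is named or counted in its role, and of the other lists up to 5 called genes, those most changed above a mean CPM of 5.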

Additional observations from a re-analysis of the deposited data

How the results depend on the processing

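The median of the mitotic members stayed below 0 in every alternative run, between -0.24 and -0.13. Members called lower numbered 3 to 5 across other scalings, filters and tools and 1 to 6 when 1 library was left out. Members called higher numbered 1 with no filter (CDC20), and 0 to 1 with 1 library left out. Other mitotic genes called higher numbered 1 with RLE size factors, library size alone, a mean CPM of at least 5, DESeq2, limma-voom and protein-coding genes alone (SEPTIN9 in each), and 0 to 1 with 1 library left out. With 1 library left out, other mitotic genes called lower numbered 6 to 14, replication genes called lower 9 to 18 with a median of -0.48 to -0.42, and all genes called lower 423 to 898 and higher 445 to 726. Those fits have fewer samples. Scaled by library size alone, the median was 0.076 for all genes tested, -0.092 for the other mitotic and -0.35 for the replication genes. The values of CENPA, CENPE, NDC80 and KIF2C turned to 0.040, 0.034, 0.0070 and 0.048. That scaling leaves out the TMM factors, which were 0.989, 1.07 and 1.02 in the knockdown libraries and 0.983, 0.978 and 0.969 in the controls. The members' sum was 94.5% of control in TPM. The cause of these shifts was not tested.

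The log2 fold changes of 8 members changed sign when 1 library was left out. Their ranges were -0.092 to 0.27 for CCNB1, -0.11 to 0.52 for INCENP, -0.037 to 0.25 for BIRC5, -0.19 to 0.13 for CENPA, -0.068 to 0.017 for CENPE, -0.18 to 0.086 for NDC80, -0.11 to 0.084 for KIF2C and -0.47 to 0.13 for NEK2. The median of all genes tested ranged from -0.0097 to 0.017 with 1 library left out. It was -0.014 with the replicate block, -0.018 with limma-voom and 0.076 with library size alone.

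The replicate block used numbers that no label ties to a shared culture or day. Deviations of same-numbered libraries correlated at -0.12, -0.06 and -0.04, and no library correlated best with its own number. With the block 3 members were called lower, without MAD2L1 (-0.52, edgeR adjusted p = 0.0894), with a median of -0.23, and 553 genes were lower and 519 higher, against 780 and 727. Depth limits the low genes most: the SE of the log2 fold change was 0.59 for UBE2C, against a median of 0.16 over the members.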
